A study of Arabidopsis thaliana with 16 samples.

Results

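The genes described here rose moderately within hours of moving the transcription factor FHY3 into the nucleus, both in darkness and in far-red light. FHY3 acts in phytochrome A signalling, the pathway through which Arabidopsis seedlings sense far-red light. It binds DNA and raises, among other genes, FHY1 and FHL, whose products carry phytochrome A into the nucleus. Gibberellin, a hormone that promotes stem growth in dark-grown seedlings, and calcium, read by calmodulin and the proteins that bind it, are other inputs to seedling growth to which some of the genes below belong.

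The 16 samples were each hybridised to an Affymetrix ATH1 array, whose unit of measurement is the probe set, a group of short probes against a transcript. All groups carried the same genotype, the transgenic line FHY3p:FHY3-GR fhy3-4: the fhy3-4 mutant with a fusion of FHY3 and the steroid-binding part of the glucocorticoid receptor (GR) under the native FHY3 promoter. The 4 groups of 4 arrays were seedlings 4 days old, grown in darkness or in continuous far-red light and given 10 µM dexamethasone (DEX), which lets the fusion enter the nucleus, or an equal volume of ethanol (mock), for 2 h. The design text calls the 4 replicates of each treatment independent and biological. Every group carries the fusion, so an action of the steroid by itself and an action of nuclear FHY3-GR cannot be told apart.

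Members were chosen from the measured values. Of 13356 genes with a probe set of their own (the brightest for each gene), 63 are described. In each light their mean log2 signal under DEX exceeded that under mock by at least 0.25, and all 4 DEX arrays lay above all 4 mock arrays. A further 13 genes that met the same thresholds were left out by name or family, among them the strongest risers. The rule was met in darkness by 289 genes (2.16%), in far-red light by 193 (1.45%) and in both by 76 (0.569%). These shares come from the contrasts that chose the members, and DEX changes of members are given below as a description with no test. The mirrored rule, a fall of the same size with separate arrays, was met by 435 genes in darkness, 91 in far-red and 11 in both.

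The array medians of the deposited log2 signals lay between 6.60 and 6.68, and arrays of a group correlated at 0.9954 to 0.9981. The growth light showed in the marker genes listed for it. RCA, PSAN and SBPASE, nuclear genes of photosynthesis, were higher in far-red light by 1.46 ± 0.05, 1.85 ± 0.05 and 1.17 ± 0.05 on the log2 scale (± SE, averaged over treatments). PORB, an enzyme of chlorophyll synthesis that is abundant in dark-grown seedlings, and the expansin gene EXPB1 were lower there by a log2 difference of -1.12 ± 0.06 and -2.64 ± 0.08. Of 6 listed root markers 2 had a probe set named for them alone, and both were lower in far-red light, as were 24% of the 13356 genes. AT2G25150 was lower there by a log2 difference of -3.22 ± 0.11 (limma adjusted p = 8.16e-16), with group means of 7.44 to 7.56 in darkness and 4.23 to 4.33 in far-red, and PYK10 by -0.16 ± 0.06 (limma adjusted p = 0.0245), with group means of 13.42 to 13.63. Their log2 DEX changes lay between -0.11 and 0.09, none past the test. The part of root content in the light differences below was not tested. The level of FHY3 itself was not analysed here. As signs of RNA quality, the 3′ minus 5′ signal of the ubiquitin control ran from 1.15 to 1.25 on the dark DEX arrays and from 1.26 to 1.28 on the dark mock arrays. In far-red it ran from 1.19 to 1.35 under DEX and from 1.13 to 1.24 under mock. It was thus lower with DEX in darkness and higher on average in far-red. The same measure of the GAPDH control was lower on average with DEX in both lights, with means of 0.94 ± 0.11 against 1.01 ± 0.09 in darkness and 0.9975 ± 0.15 against 1.16 ± 0.09 in far-red (SD, n = 4), and its arrays overlapped between treatments in each. The part of RNA quality in the members' values was not tested.

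The members rose by a median of 0.62 in darkness (range 0.29 to 1.07) and of 0.45 in far-red light (range 0.25 to 0.93) on the log2 scale. Over all 13356 genes the medians were 0.01 and -0.02. The rise was larger in darkness for 52 members and larger in far-red for 11. Only AT4G14500, AT1G50660 and AT1G01300 rose at least 2-fold in darkness, and no member did in far-red. For 59 of the 63 the far-red change was at least 0.5 times the dark one. The rule's floor of 0.25 in far-red secures this for members with a dark change up to 0.5, so nothing is read from that count. Their signals were mostly above the middle. The median over members was 7.89, against 6.65 over all probe sets and 6.16 over the 13356 genes, whose upper quartile was 8.04. Above 6.65 lay 51 members and 5964 of the 13356 genes. The lower quartile over all probe sets was 4.45; no member had a mean signal under it, and AT4G03340 was the 1 member with a group mean under it.

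**Figure D1:**
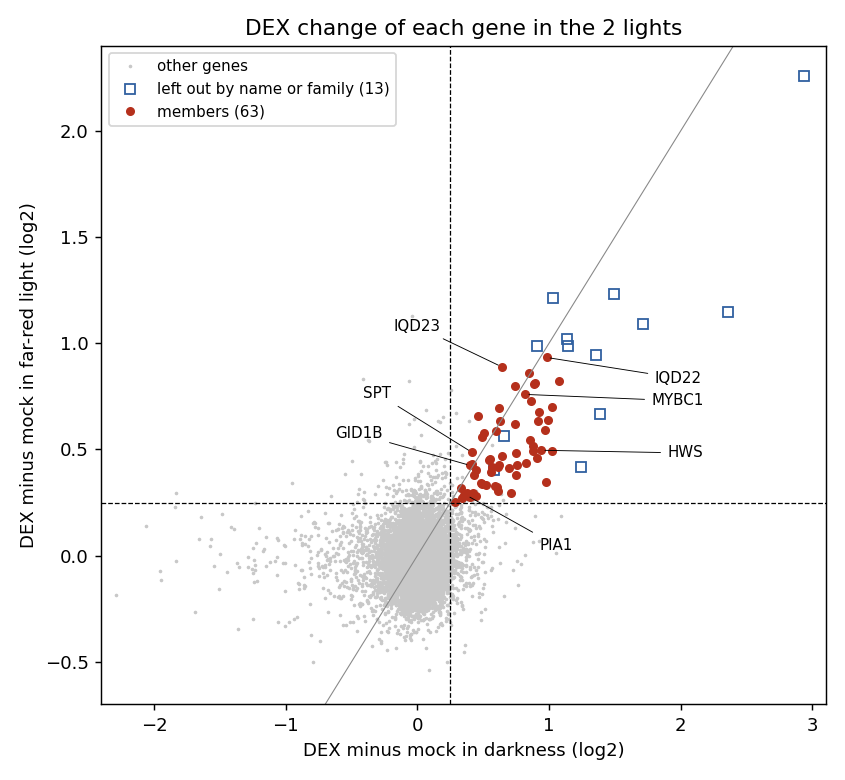
Mean log2 DEX minus mock in darkness (horizontal) against far-red light (vertical) for each of 13356 genes. The 63 members (filled circles) lie above the dashed thresholds of 0.25 in both lights and reach 1.07 in darkness and 0.93 in far-red. The grey diagonal marks equal change, and 52 members lie below it. Open squares are the 13 genes left out by name or family.

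Only 7 of the 63 members carry a gene symbol in the reference; the other 56 are known there by locus tag, and no role is given for them here. The 7 are described first, by role: hormone reception, transcription, protein removal, calcium signalling and dephosphorylation.

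GID1B encodes a gibberellin receptor of the GID1 family; bound to the hormone, these receptors bring about the removal of DELLA proteins, which restrain growth. Its log2 signals were 7.35, 7.50, 7.52 and 7.37 in dark mock and 7.85, 7.82, 7.74 and 7.92 in dark DEX. In far-red they were 7.08, 6.86, 7.00 and 7.25 under mock and 7.60, 7.27, 7.49 and 7.53 under DEX. The treatments were apart in both lights, in far-red by only 0.02 between DEX replicate 2 and mock replicate 4. DEX raised it by 0.40 ± 0.09 in darkness and 0.42 ± 0.09 in far-red (log2 change ± SE), about 1.32-fold and 1.34-fold.

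The other measured genes of gibberellin reception had different DEX values. GID1A fell in darkness, from a mean of 8.95 ± 0.12 to 8.71 ± 0.06 (SD, n = 4; log2 change -0.24 ± 0.07 SE, limma adjusted p = 0.0385), where 3.56% of all 22746 probe sets fell. In far-red it had 9.34 ± 0.04 under mock and 9.59 ± 0.09 under DEX, a log2 change of 0.25 ± 0.07 that did not pass the test (limma adjusted p = 0.115) although its arrays were apart. The difference between its 2 responses was itself called, 0.49 ± 0.10 (limma adjusted p = 0.00649). GID1C stood at -0.04 ± 0.09 in darkness and 0.20 ± 0.09 in far-red, and SLY1, an F-box protein that marks DELLA proteins for removal, at 0.16 ± 0.07 and 0.09 ± 0.07; none of these passed the test. The genes of this group, like the relatives named next, were picked after the members had been seen.

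SPT (SPATULA) encodes a basic helix-loop-helix transcription factor known for its part in the carpel and in the response of seed germination to cold and light. Its signals were 8.89, 8.67, 8.79 and 8.78 in dark mock and 9.22, 9.30, 9.23 and 9.02 in dark DEX. In far-red they were 8.66, 8.71, 8.81 and 8.87 under mock and 9.31, 9.19, 9.18 and 9.32 under DEX. The mock arrays of both lights covered nearly the same range, the DEX arrays overlapped, and all 8 DEX arrays lay above all 8 mock arrays. The log2 rise was 0.41 ± 0.07 in darkness and 0.49 ± 0.07 in far-red. ALC (ALCATRAZ), a close relative of SPT that acts in fruit opening, responded differently in the lights. It rose in darkness from 5.61 ± 0.22 to 6.66 ± 0.14 (SD, n = 4; log2 change 1.05 ± 0.10 SE, limma adjusted p = 2.25e-07, where 2.34% of all probe sets rose). In far-red it had 6.38 ± 0.12 under mock and 6.39 ± 0.06 under DEX (log2 change 0.01 ± 0.10, limma adjusted p = 0.978), and the responses differed by -1.04 ± 0.14 (limma adjusted p = 0.000133).

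MYBC1 encodes a MYB-related transcription factor. It had 9.29, 9.07, 9.20 and 9.20 in dark mock and 10.05, 10.03, 10.01 and 9.94 in dark DEX. The far-red arrays gave 9.20, 9.00, 9.26 and 9.27 under mock and 9.94, 9.98, 9.87 and 9.97 under DEX. All 8 DEX arrays lay above all 8 mock arrays, whatever the light. Its log2 rises of 0.82 ± 0.07 in darkness and 0.76 ± 0.07 in far-red were among the 8 largest of the members by the smaller of both changes. Its nearest gene among those that met the thresholds is BZIP17, which was left out by name and lies 3 genes away on chromosome 2.

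HWS (HAWAIIAN SKIRT) encodes an F-box protein, a class of proteins that select others for removal, and is known for its part in organ growth and in the separation of floral organs. It had 6.36, 6.71, 6.76 and 6.60 in dark mock and 7.70, 7.62, 7.33 and 7.54 in dark DEX. The far-red signals were 6.25, 6.11, 6.42 and 6.01 under mock and 6.95, 6.67, 6.62 and 6.53 under DEX. The far-red DEX arrays overlapped with the dark mock arrays. Its log2 rise was 0.94 ± 0.11 in darkness and 0.50 ± 0.11 in far-red.

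IQD22 and IQD23 belong to the IQ-domain family, plant proteins that bind calmodulin. IQD22 headed the members by the smaller of both changes. It had 6.52, 6.57, 6.47 and 6.25 in dark mock and 7.51, 7.50, 7.35 and 7.36 in dark DEX. In far-red it had 7.08, 7.00, 7.24 and 7.37 under mock and 8.20, 8.05, 8.18 and 7.99 under DEX. Every far-red DEX array lay above every dark DEX array, and far-red mock replicate 4 reached the lowest dark DEX arrays. The log2 rise was 0.98 ± 0.09 in darkness and 0.93 ± 0.09 in far-red, or 1.97-fold and 1.91-fold.

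IQD23 had 8.09, 8.04, 7.97 and 7.997 in dark mock and 8.69, 8.54, 8.69 and 8.74 in dark DEX. Its far-red values were 8.19, 7.93, 8.02 and 7.89 under mock and 8.96, 8.86, 8.84 and 8.93 under DEX. Both mock groups overlapped, while all far-red DEX arrays lay above all dark DEX arrays. Its log2 rise of 0.89 ± 0.07 in far-red exceeded that of 0.64 ± 0.07 in darkness, the largest excess in that direction among the members. The rises in the lights were not shown to differ.

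Of the 24 IQD genes in the reference, 11 had a probe set named for them alone, and 9 of these are not members. The rest could not be followed here. None of the 9 passed the test for DEX in darkness, with log2 changes between -0.08 and 0.22 there. In far-red 1 of the 9 rose, IQD24, from 4.74 ± 0.21 to 5.37 ± 0.21 (SD, n = 4; log2 change 0.64 ± 0.11 SE, limma adjusted p = 0.00392), where 0.919% of all probe sets rose and 0.119% fell. Its change in darkness was 0.16 ± 0.11, and its responses in the lights were not shown to differ (0.48 ± 0.16, limma adjusted p = 0.158). The dark mean signals of IQD24 (4.04 and 4.20) were dimmer than that quartile. The other 8 stood between -0.24 and 0.00 in far-red, IQD28 lowest at -0.24 ± 0.06 (limma adjusted p = 0.102).

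PIA1 encodes a type 2C protein phosphatase. It had 11.13, 11.25, 11.20 and 11.32 in dark mock and 11.45, 11.55, 11.66 and 11.75 in dark DEX. The far-red arrays gave 11.11, 11.14, 11.14 and 11.08 under mock and 11.37, 11.55, 11.28 and 11.39 under DEX. The groups were apart by 0.13 in darkness and 0.14 in far-red, and the log2 rises were 0.38 ± 0.07 and 0.28 ± 0.07.

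**Figure D2:**
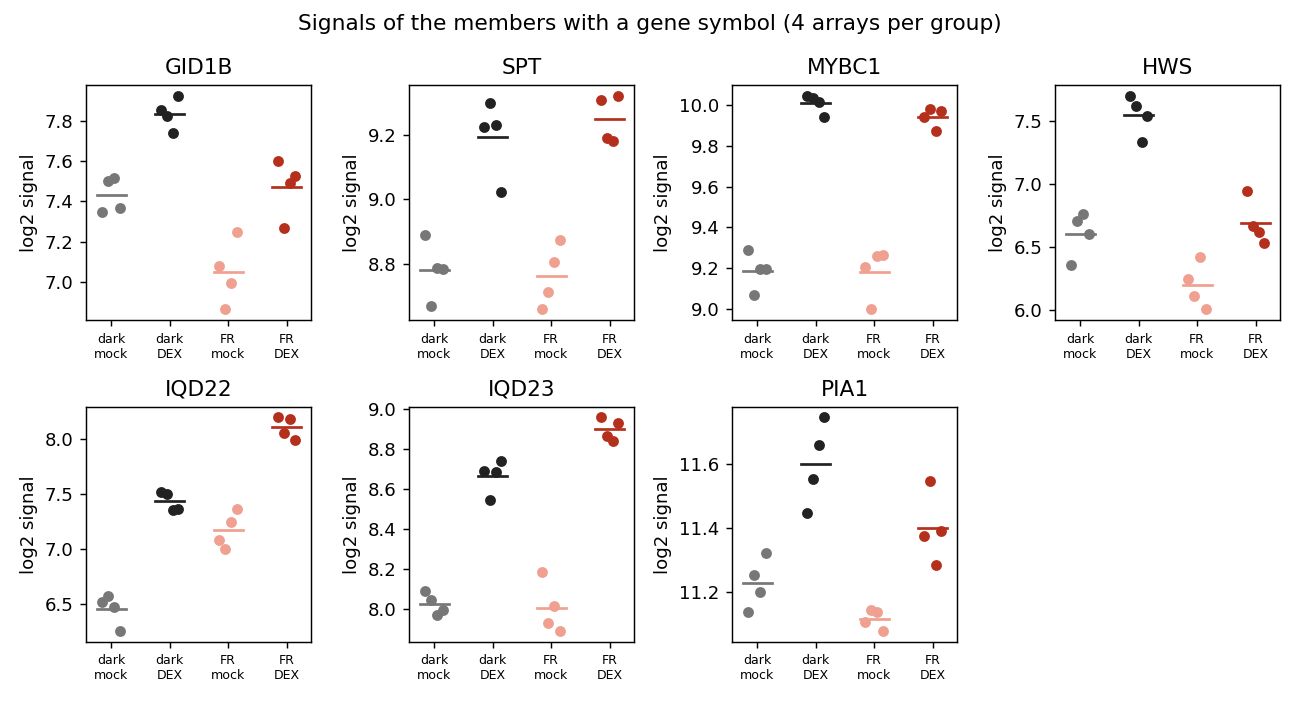
Log2 signal of the 7 members with a gene symbol, 1 point per array and a line at the mean of the 4 arrays of a group (FR, far-red), on an axis of its own for each gene. In each panel the DEX points lie above the mock points of the same light. For SPT and MYBC1 the points of both lights overlap within each treatment. For IQD22 far-red lies higher and for GID1B lower within each treatment. For HWS far-red lies lower under DEX, while the mock points of both lights overlap.

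**Figure D3:**
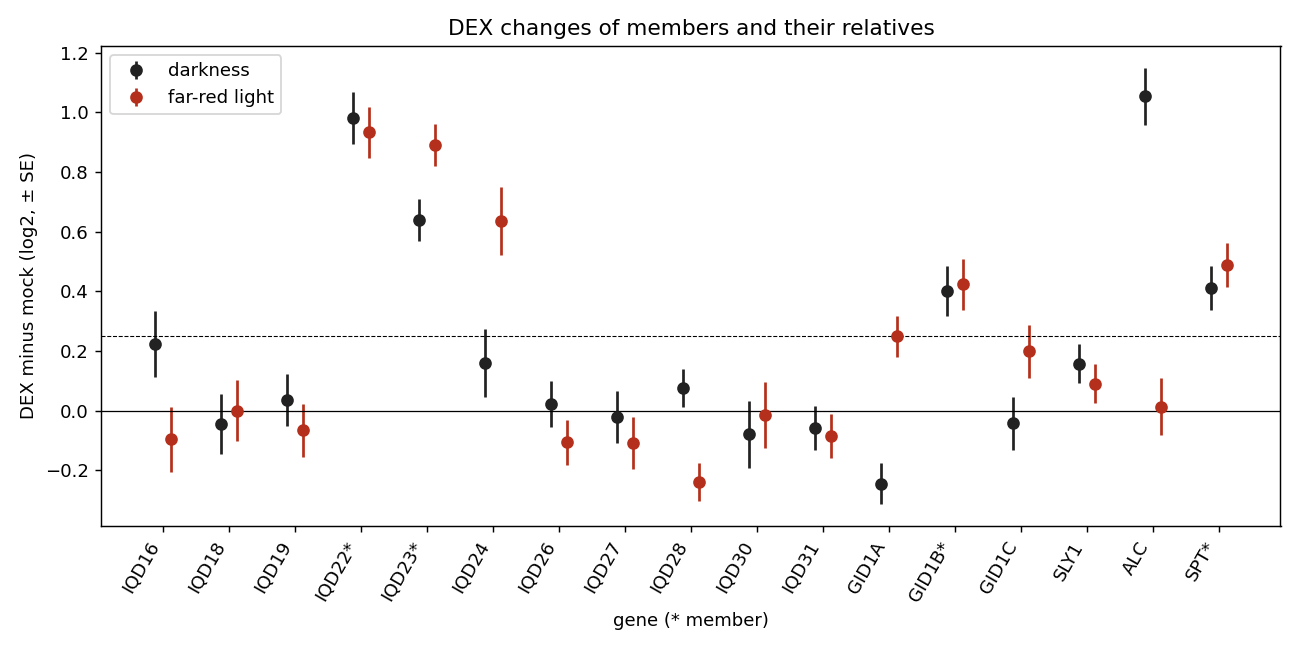
Log2 DEX minus mock (± SE) in darkness and in far-red light for the 11 measured IQD genes, the gibberellin reception genes and the pair SPT and ALC. Members are starred and stand above the dashed line at 0.25 in both lights, where the rule put them; ALC stands at 1.05 in darkness and 0.01 in far-red, and IQD24 at 0.16 and 0.64.

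After IQD22, the members with the largest rise by the smaller of both changes were AT2G44770, AT4G14500, AT2G24360, AT3G03360, MYBC1, AT3G25870 and AT5G63820. AT2G44770 had 8.77, 8.78, 8.81 and 8.79 in dark mock, 9.50, 9.71, 9.73 and 9.61 in dark DEX, 9.02, 8.82, 9.01 and 8.86 in far-red mock and 9.90, 9.71, 9.83 and 9.71 in far-red DEX. Its changes were nearly equal, 0.85 ± 0.07 in darkness and 0.86 ± 0.07 in far-red, and all DEX arrays lay above all mock arrays. AT4G14500 rose most of all members in darkness, from 8.52, 8.62, 8.56 and 8.62 to 9.57, 9.61, 9.70 and 9.73, or 2.104-fold. In far-red it went from 8.67, 8.49, 8.69 and 8.81 to 9.64, 9.50, 9.37 and 9.43, or 1.77-fold. AT2G24360 had 9.69, 9.75, 9.74 and 9.66 in dark mock, 10.56, 10.66, 10.61 and 10.59 in dark DEX, 9.63, 9.71, 9.60 and 9.63 in far-red mock and 10.56, 10.48, 10.38 and 10.40 in far-red DEX. As with AT2G44770 and MYBC1, its mock arrays lay in 1 narrow range and its DEX arrays in another in both lights.

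AT3G03360 had 6.56, 6.55, 6.53 and 6.56 in dark mock, 7.34, 7.31, 7.53 and 7.57 in dark DEX, 6.33, 6.32, 6.19 and 6.29 in far-red mock and 7.02, 7.12, 7.08 and 7.14 in far-red DEX. Each of its 4 groups held a range of its own, far-red below dark under either treatment. AT3G25870 had 6.29, 6.54, 6.24 and 6.49 in dark mock, 7.05, 6.94, 7.15 and 7.40 in dark DEX, 7.08, 7.16, 7.20 and 6.89 in far-red mock and 7.73, 7.92, 7.84 and 8.05 in far-red DEX. The far-red mock arrays overlapped with the dark DEX arrays, and the log2 rises were 0.74 ± 0.10 in darkness and 0.80 ± 0.10 in far-red. AT5G63820 had 6.21, 6.38, 6.26 and 6.28 in dark mock, 7.03, 7.16, 7.16 and 7.24 in dark DEX, 5.81, 5.79, 6.01 and 5.58 in far-red mock and 6.62, 6.58, 6.41 and 6.49 in far-red DEX. Its order was the reverse of that of AT3G25870, with far-red below dark under either treatment, and its log2 rises were 0.87 ± 0.08 and 0.73 ± 0.08.

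The members least alike in the lights were AT5G24870, AT1G50660 and AT2G45750. AT5G24870 went from 7.56, 7.89, 7.57 and 7.65 to 8.77, 8.50, 8.58 and 8.74 in darkness, a log2 rise of 0.98. In far-red it went from 7.70, 7.42, 7.33 and 7.17 to 7.72, 7.75, 7.74 and 7.81, a rise of 0.35, with far-red mock replicate 1 only 0.02 under the lowest DEX array. AT1G50660 went from 7.09, 7.27, 7.21 and 7.23 to 8.10, 8.22, 8.20 and 8.37 in darkness and from 7.06, 7.05, 7.00 and 6.84 to 7.52, 7.51, 7.53 and 7.36 in far-red, log2 rises of 1.02 and 0.49. AT2G45750 rose by 0.91 in darkness and 0.46 in far-red, and its far-red DEX arrays (7.02 to 7.27) overlapped with its dark mock arrays (6.97 to 7.13). In the other direction, beside IQD23, AT4G38660 rose by 0.46 in darkness and 0.66 in far-red. Its far-red mock arrays were spread from 5.75 to 6.29, below the dark mock arrays at 6.52 to 6.90.

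At the edge of the rule, the members with the smallest changes were AT1G22270 (0.40 in darkness and 0.28 in far-red), AT5G13760 (0.34 and 0.27) and AT3G01210 (0.29 and 0.25). Just outside it were AT5G16380 (0.246 in darkness and 0.25 in far-red), AT3G03330 (0.499 and 0.245) and AT3G07760 (0.287 and 0.243), whose arrays were separate in both lights. Another 21 genes passed 0.25 in both lights with overlapping arrays. At a threshold of 0.3 the rule kept 52 members; the 11 it dropped include PIA1.

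The mean over the 63 members, each taken relative to its own mean over the 8 arrays of a light, was 0.31 to 0.35 on the dark DEX arrays and -0.34 to -0.30 on the dark mock arrays. In far-red it was 0.23 to 0.27 under DEX and -0.27 to -0.21 under mock. The rule required DEX and mock arrays to be apart for every member, so the separation of these means was fixed by it. Dark mock replicate 2 was the highest dark mock array for 20 members, and far-red mock replicate 1 the highest far-red mock array for 22. The lowest DEX array was spread over the replicates, 14 to 18 members each in darkness and 13 to 18 in far-red. Without far-red mock replicate 4 the rule found 70 genes, 59 of them among the 63, and without far-red mock replicate 1 it found 73 with all 63 among them.

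**Figure D4:**
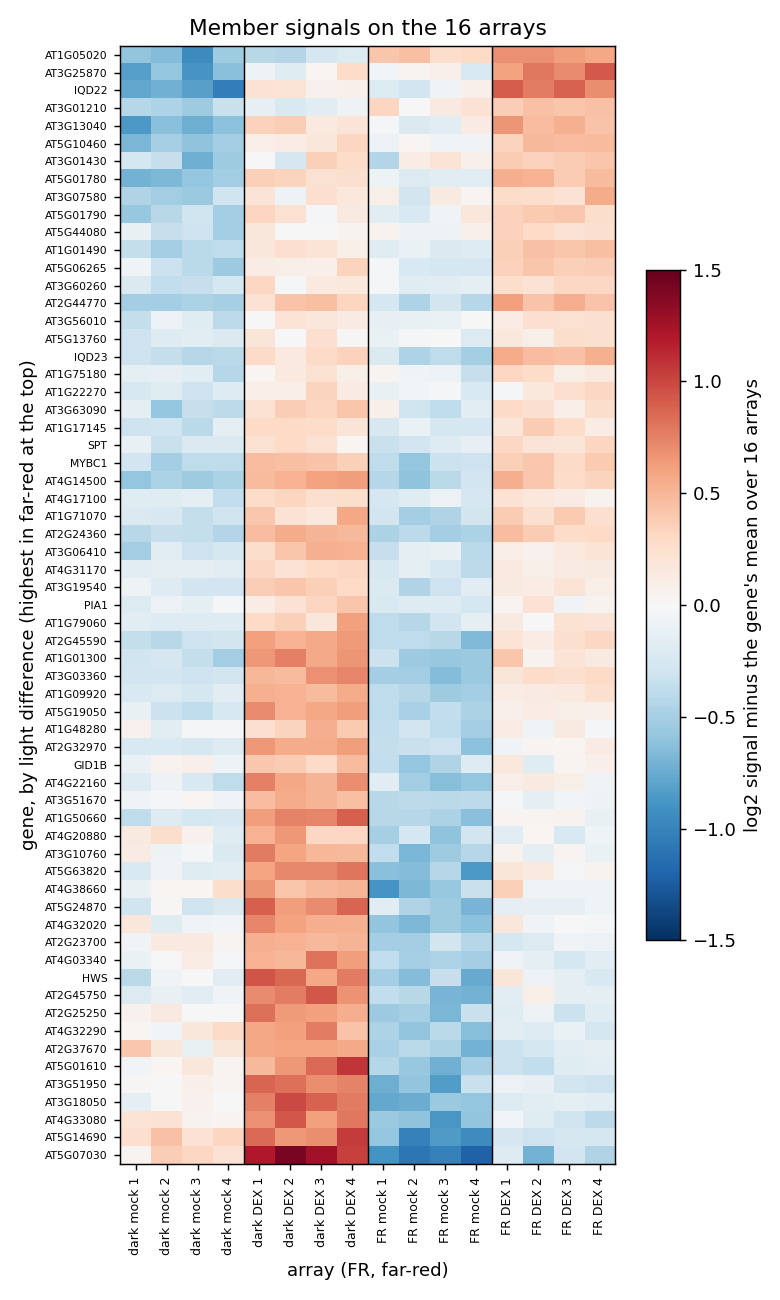
Log2 signal of each member on each of the 16 arrays (columns, FR for far-red) minus the gene's mean over the 16, with genes ordered by their light difference. The DEX blocks are higher than the mock blocks of the same light in every row, by the rule; towards the bottom the far-red blocks turn lower than the dark ones, and in the top rows higher.

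Whether the members also differ between the lights was tested on the mean of both far-red groups minus the mean of both dark groups, a contrast the rule did not use. A DEX change of equal size in both lights cancels in it, but an unequal one does not, and 52 members rose more in darkness, which lowers their averaged difference relative to that of the mock arrays. The rule's demand for separate arrays is also met more easily where arrays of a group differ little, and that spread enters the test. The median SD within a group was 0.099 for members and 0.108 over all genes. The shares of calls below are therefore not like for like. Of the 63 members, 35 were lower and 16 higher in far-red light, and 12 did not pass the test (limma adjusted p under 0.05 over 22746 probe sets). The calls of this test were common: 48.5% of all probe sets were called, 26.6% lower and 21.8% higher; over the 13356 genes with a probe set of their own, 44.8% were called, 24% lower and 20.8% higher. Their median light difference was -0.16 on the log2 scale, beside -0.01 over all 13356 genes, and the median size, regardless of sign, was 0.34 beside 0.12. On the mock arrays alone 26 members were lower and 12 higher in far-red, where 38.6% of all probe sets were called, 20.8% lower and 17.8% higher. On the DEX arrays alone 35 were lower and 10 higher, where 39.7% were called, 22.2% lower and 17.5% higher. The members' median difference was -0.11 on the mock arrays and -0.22 on the DEX arrays, beside 0.00 and -0.02 over all genes. The single-treatment values share arrays with the rule's contrasts and are given as a description; 9 members were called lower on the DEX arrays and not on the mock arrays. AT5G24870, for example, stood at -0.58 averaged, -0.26 on the mock arrays and -0.89 on the DEX arrays.

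The share called was higher among bright genes. Among genes above the median signal of all probe sets, 3967 of 5964 (66.5%) were called, beside 40 of 51 such members (78.4%). The 13 genes left out by name or family had 12 calls, 7 lower and 5 higher, with a median of -0.19. The 213 genes that met the rule in darkness and not in far-red had 117 lower and 43 higher calls, with a median of -0.20. The difference between these groups of genes and the members was not tested.

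AT5G07030 had the largest light difference. Its signals were 7.97, 8.29, 8.24 and 8.14 in dark mock, 9.13, 9.35, 9.18 and 8.95 in dark DEX, 7.04, 6.84, 6.92 and 6.72 in far-red mock and 7.74, 7.22, 7.64 and 7.48 in far-red DEX. All 8 far-red arrays lay below all 8 dark arrays, so that far-red seedlings with DEX stayed under dark seedlings without it. It was 2.75-fold lower in far-red (log2 difference -1.46 ± 0.08 SE, limma adjusted p = 1.09e-12). AT5G14690 had 7.21, 7.40, 7.18 and 7.29 in dark mock, 7.82, 7.61, 7.66 and 8.01 in dark DEX, 6.38, 5.95, 6.11 and 6.02 in far-red mock and 6.71, 6.65, 6.71 and 6.70 in far-red DEX. It was lower in far-red by a log2 difference of -1.12 ± 0.07 (limma adjusted p = 7.83e-12).

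AT4G33080 (-0.88 ± 0.06), AT3G18050 (-0.83 ± 0.05), AT3G51950 (-0.82 ± 0.06) and AT5G01610 (-0.81 ± 0.07) followed, each with a limma adjusted p of 4.34e-09 or less. For 8 members all far-red arrays lay below all dark arrays, which held for 11.4% of the 13356 genes: AT5G07030, AT5G14690, AT4G33080, AT3G51950, AT5G01610, AT2G37670 (-0.74), AT4G32290 (-0.71) and AT2G25250 (-0.71). Within each treatment taken by itself, the far-red arrays lay below the dark arrays for 24 members and above them for 9, against 13% and 10.8% of the 13356 genes. Of the 35 lower members, 14 had a lower mean in far-red with DEX than in darkness without it, and 21 a higher one.

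Among the members with a symbol, HWS was lower in far-red by -0.63 ± 0.08 (limma adjusted p = 5.39e-07), GID1B by -0.37 ± 0.06 (limma adjusted p = 2.32e-05) and PIA1 by -0.16 ± 0.05 (limma adjusted p = 0.0161). Among the other measured genes of gibberellin reception, picked after the members had been seen, GID1A was higher in far-red by 0.63 ± 0.05 (limma adjusted p = 6.06e-10). GID1C stood at -0.004 ± 0.06 (limma adjusted p = 0.968), and SLY1 was lower by -0.12 ± 0.05 (limma adjusted p = 0.0349). For comparison, 20.8% of the 13356 genes were called higher and 24% lower. The further lower members were AT2G45750, AT4G03340, AT2G23700, AT4G32020, AT5G24870, AT4G38660, AT5G63820, AT3G10760 and AT4G20880, between -0.64 and -0.52, then AT1G50660, AT3G51670, AT4G22160, AT2G32970, AT1G48280, AT5G19050, AT1G09920, AT3G03360, AT1G01300 and AT2G45590, between -0.48 and -0.24. The smallest called differences were those of AT1G79060 (-0.17), AT3G19540 (-0.15), AT4G31170 (-0.13) and AT2G24360 (-0.11). AT4G03340, at -0.62, is the dim member named above, and no background level was available for it.

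In the other direction, AT1G05020 was 2.01-fold higher in far-red (log2 difference 1.01 ± 0.06 SE, limma adjusted p = 8.97e-12). It had 5.34, 5.28, 4.98 and 5.39 in dark mock, 5.52, 5.49, 5.68 and 5.73 in dark DEX, 6.35, 6.39, 6.20 and 6.23 in far-red mock and 6.62, 6.62, 6.56 and 6.51 in far-red DEX. Its 4 groups did not overlap, and far-red without DEX lay above darkness with DEX. The same order held for AT3G01210, with 7.65, 7.61, 7.54 and 7.74 in dark mock, 7.95, 7.85, 7.90 and 8.002 in dark DEX, 8.39, 8.08, 8.20 and 8.29 in far-red mock and 8.45, 8.52, 8.49 and 8.52 in far-red DEX (difference 0.59 ± 0.05, limma adjusted p = 2.45e-09). For these 2 members all far-red arrays lay above all dark arrays, against 9.46% of the 13356 genes. The DEX rise that the rule required widens a member's range within each light. This share and the 11.4% given above are therefore not like for like with the members.

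AT3G25870 was higher by 0.72 ± 0.07 (limma adjusted p = 2.49e-08) and IQD22 by 0.70 ± 0.06 (limma adjusted p = 4.41e-09). IQD24 was higher as well, by 0.94 ± 0.08 (limma adjusted p = 2.87e-09), while 6 of the other 8 measured IQD genes that are not members were lower. Over the 13356 genes 24% were called lower and 20.8% higher. AT3G13040 (0.45), AT5G10460 (0.40), AT3G01430 (0.37), AT5G01780 (0.33), AT3G07580 (0.33), AT5G01790 (0.28), AT5G44080 (0.27), AT1G01490 (0.24), AT5G06265 (0.18), AT3G60260 (0.15), AT2G44770 (0.14) and AT3G56010 (0.13) were the other members called higher. AT3G56010 passed the test narrowly, with a limma adjusted p of 0.0481.

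The 12 members that did not pass the test for light were SPT (0.02 ± 0.05), MYBC1 (-0.04 ± 0.05), IQD23 (0.11 ± 0.05), AT5G13760, AT1G75180, AT1G22270, AT3G63090, AT1G17145, AT4G14500, AT4G17100, AT1G71070 and AT3G06410, with differences between -0.12 and 0.11. A miss of the threshold does not show equal levels. On the DEX arrays alone AT3G06410 stood at -0.31 and IQD23 at 0.23, and on the mock arrays at 0.06 and -0.02.

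Set against the DEX changes, the light difference was the larger in size for 13 members, 11 of them lower and 2 higher in far-red. Taking the 4 group means together, dark DEX was the highest group for 42 members and far-red DEX for 21, and far-red mock was the lowest for 39 and dark mock for 24. For 19 members no array of any group overlapped with another group, against 0.434% of the 13356 genes; the rule itself required DEX and mock to be apart within each light, so nothing is read from that share.

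**Figure D5:**
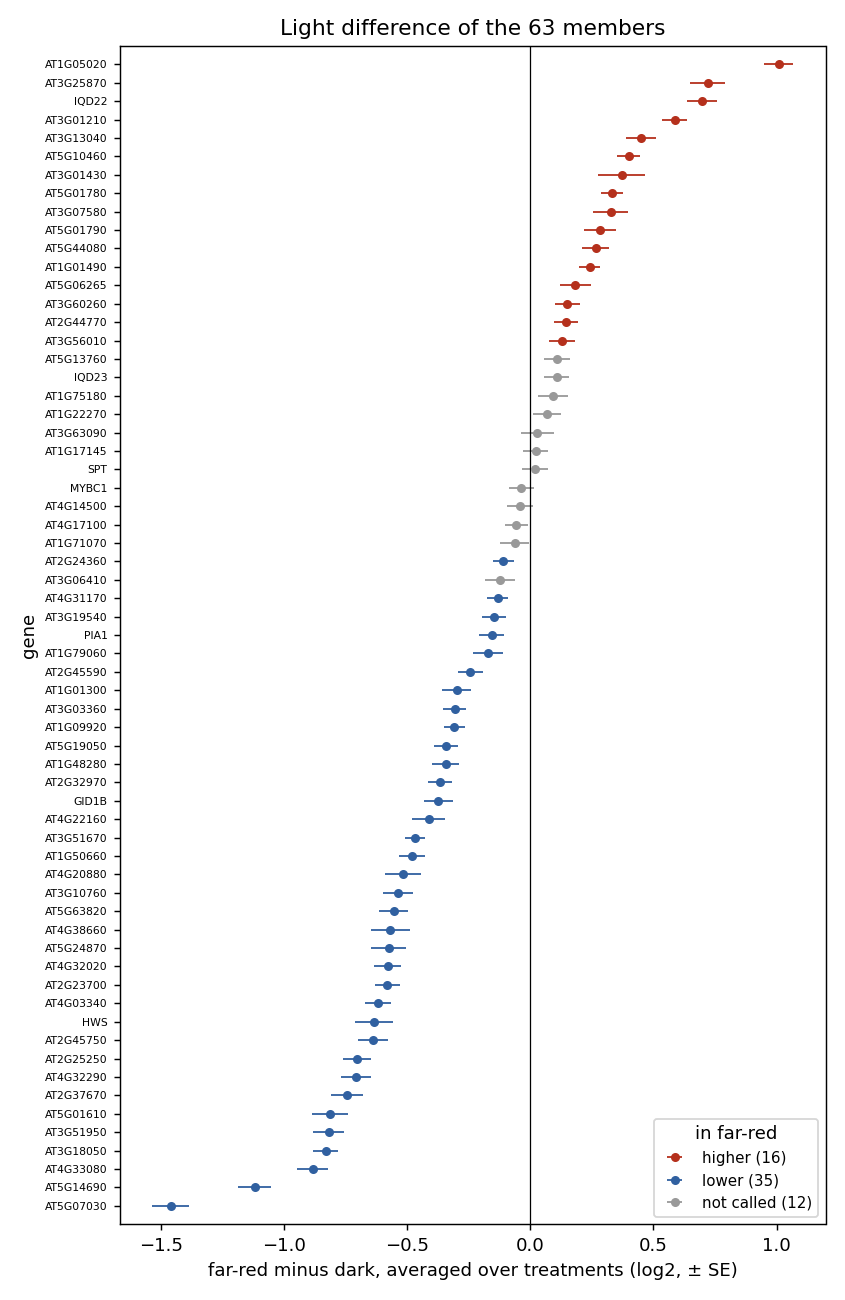
Far-red minus dark log2 signal, averaged over DEX and mock (± SE from the fit over 16 arrays), for the 63 members, coloured by the test: 35 lower, 16 higher and 12 not called. The values run from -1.46 for AT5G07030 to 1.01 for AT1G05020.

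The members came from all 5 nuclear chromosomes, 11 of 3411 measured genes on chromosome 1, 10 of 2169 on chromosome 2, 17 of 2720 on chromosome 3, 12 of 1935 on chromosome 4 and 13 of 2982 on chromosome 5. None was among the 69 measured plastid genes. AT5G01780 and AT5G01790 are neighbours on chromosome 5 and were the only adjacent pair. AT5G01780 rose by 0.91 ± 0.06 in darkness and 0.63 ± 0.06 in far-red, from 6.56, 6.59, 6.69 and 6.74 to 7.63, 7.61, 7.49 and 7.51 and from 7.20, 7.07, 7.10 and 7.11 to 7.82, 7.79, 7.65 and 7.74. AT5G01790 rose by 0.61 ± 0.09 and 0.42 ± 0.09, from 7.18, 7.34, 7.44 and 7.23 to 8.07, 7.97, 7.72 and 7.88 and from 7.58, 7.52, 7.70 and 7.92 to 8.09, 8.13, 8.15 and 8.01. Both were higher in far-red under mock and had their larger DEX change in darkness. The median gene length of the members was 2556 bases, against 2105 over the measured genes, in the reference annotation.

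Of 34 genes listed for phytochrome A and FHY3 signalling, 3 had a probe set named for them alone, and none of these 3 is a member. The annotation used left 8730 of the 22746 probe sets unnamed, so the other listed genes could not be followed here. FHL, named above among the genes that FHY3 raises, instead fell with DEX in darkness (log2 change -0.98 ± 0.13, limma adjusted p = 2.49e-05). In far-red it had -0.31 ± 0.13 with separate arrays and did not pass the test. The cause of this opposite direction was not tested. HYH, a bZIP transcription factor of light signalling, stood at 0.05 ± 0.11 in darkness and 0.04 ± 0.11 in far-red, and HEMB1, an enzyme of tetrapyrrole synthesis, at -0.03 ± 0.06 and 0.03 ± 0.06. For DEX 5.9% of all probe sets were called in darkness and 1.04% in far-red. All 3 genes were higher in far-red light, HYH by 2.19 ± 0.08, FHL by 0.77 ± 0.09 and HEMB1 by 0.41 ± 0.04. Of the 13356 genes 20.8% were called higher there.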

How the data were processed

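The authors deposited 1 log2 value per probe set and array, already summarised; the submitters' processing notes name RMA and affy and state no settings. The 64 control probe sets were left out and 22746 tested; 0 columns were unused. Precision rests on 4 arrays per group, and no background or detection call is given. Gene names came from the platform annotation and, by gene ID, RefSeq (TAIR10.1), which also gave chromosome, gene length and gene order; no position is printed. All 16 arrays entered 1 linear model with a mean per group (limma 3.58.1 with lmFit and eBayes, R 4.3.3), with Benjamini and Hochberg adjustment over all probe sets and a threshold of 0.05. In simulated normal noise with few changed probe sets, 96 of 100 light differences of 0.5 were recovered. Of 100 simulated DEX changes of 0.5, 83 were recovered in darkness and 80 in far-red. The data hold far more light calls and many smaller differences, so these rates do not carry over to the members. The members, the gene lists and the relatives were chosen with earlier results of these data known. Genes were named by rank of the smaller DEX change, by light difference, by symbol, at the edges of the rule, by unequal responses and by adjacency. The planned grouping by annotation words matched MYBC1 alone, and the planned promoter motifs were not analysed here. The main model did not pair arrays by replicate number. Same-numbered deviations correlated at -0.15 to 0.32, above 0.1 in 7 of 24 pairs. Those of replicate 1 lay between 0.06 and 0.22 and those of replicate 3 between 0.01 and 0.32. For replicates 2 and 4 they had both signs. Whether arrays of some numbers were handled together was not tested. Alternatives were other thresholds, quantile normalisation, another prior, array weights, a replicate block, a filter on dim probe sets and each array left out.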

Additional observations from a re-analysis of the deposited data

Results flagged for a closer look

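In 6 of the 124 groups of 4 arrays checked for the 31 named members, 1 array lay far from the other 3 by Dixon's criterion. The rule used these same arrays and left out genes whose arrays overlapped between treatments. This share is therefore not set against a chance rate. In far-red DEX, AT1G50660 had 7.36 on replicate 4 against 7.51 to 7.53, AT5G10460 had 9.48 on replicate 1 against 9.61 to 9.63, AT4G38660 had 6.99 on replicate 1 against 6.56 to 6.58, and AT2G45750 had 7.27 on replicate 2 against 7.02 to 7.05. In far-red mock AT4G33080 had 7.32 on replicate 3 against 7.59 to 7.64, and in dark DEX AT1G22270 had 9.28 on replicate 3 against 9.04 to 9.07. The mean deviation of all members was 0.27 on far-red DEX replicate 1 against 0.23 to 0.24 on the other 3 arrays; without that array the rule found 65 genes, all 63 members among them.

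The DEX response differed between far-red and dark, by the test of the difference, for 2 relatives of members: by 0.49 for GID1A, which had -0.24 in darkness and 0.25 in far-red, and by -1.04 for ALC, which had 1.05 and 0.01.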

How the results depend on the processing

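The rule found 52 genes at a threshold of 0.3 and 74 at 0.2, 84 with no separation required, 58 after quantile normalisation, 51 without dim probe sets and 61 to 73 with 1 array left out. A lower threshold or no demand for separation can only add genes. A higher threshold or a filter on dim probe sets can only remove them. With 1 array left out, 14 to 17 members were higher and 34 to 36 lower in far-red, out of 4730 to 5004 higher and 5830 to 6095 lower probe sets. On the DEX arrays alone 10 members were higher in far-red, against 16 as reported; the cause was not tested. No call of a member turned under any alternative run. On the mock arrays alone 38 of the 51 calls held, and on the DEX arrays alone 43. With the replicate number as a block, 16 members were higher and 35 lower, the same 51 calls, among 4997 higher and 6110 lower probe sets; each array's deviations correlated best with an array of its own number in 7 of 24 cases. The count of listed pathway genes called for DEX stayed at 1 in darkness and 0 in far-red with any 1 array left out. Of the named members, AT2G24360 lost its light call under 11 alternatives, AT2G44770 under 4, and AT5G01790 and PIA1 under 1 each, while IQD23 gained a call under 4 and AT5G13760 under 3. The number of arrays and the unknown background limit what can be said of dim genes such as AT4G03340.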

Other observations

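The mirror image of the members is small: 11 genes fell by at least 0.25 in both lights with separate arrays. They were chosen by that fall, so their values are a description. FHL was among them, with log2 changes of -0.98 in darkness and -0.31 in far-red. AT2G15130 (-1.36 in darkness and -0.34 in far-red) and AT3G22540 (-1.06 and -0.31) fell more in darkness. AT3G54000 had the largest far-red fall of the 11 (-0.79 and -0.50), and APS3, a gene of the ATP sulfurylase family of sulfate assimilation, had -0.80 and -0.37. The other 6 were AT1G26380, AT1G53080, ACA.l, AT4G16670, AT4G32030 and AT3G54200, with dark changes between -0.91 and -0.32 and far-red changes between -0.35 and -0.26. In all 11 the dark change was the larger in size.

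Outside the genes with a probe set of their own, 76 of 8730 probe sets that are unnamed here (0.871%) and 1 of 503 paired with several genes (0.199%) met the thresholds of the rule, beside 76 of 13356 genes (0.569%).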
